A study of Homo sapiens with 4 samples.

Results

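The HOX genes were taken as the protein-coding rows whose Ensembl identifier belongs to a gene named HOXA, HOXB, HOXC or HOXD plus a number. This gave 39 genes, of 19951 protein-coding genes and 58736 features listed in each library. They were measured in HEK293A, an established line of human embryonic kidney epithelial cells, by RNA sequencing of 4 libraries. NT1_hp2 cells had 2 libraries (replicates 2 and 3) and the negative control had 2 (replicates 1 and 3), and the study asked how genes respond when hairpin-forming DNA probes direct FEN1, a nuclease that cuts flaps during DNA replication. Per the labels' protocols, which are the same for both groups, a well received 1 µg of FEN1 plasmid and 500 pmol of probes 48 h afterwards, and RNA was taken after 72 h. Cells without the FEN1 plasmid were not analysed here. No source used here names the RNA that NT1_hp2 was designed against or the probe of the negative control, and no intended target was checked.

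HOX genes encode transcription factors with a homeodomain, a DNA-binding fold whose recognition helix lies in the major groove. They lie in the HOXA, HOXB, HOXC and HOXD clusters, in which genes at one end act early and anteriorly along the body axis and genes at the other end act late and posteriorly, and genes at matching places in different clusters form paralogue groups, numbered 1 (anterior) to 13 (posterior). Cultured cells often keep the HOX pattern of the body region they came from, held on by Trithorax proteins and off by Polycomb proteins. In the mouse, HOX genes of paralogue group 11 are needed for the metanephric kidney to form.

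The coding sequence of the recognition helix is shown for the 3 HOX genes that passed the test below, for the 2 with the most mRNA, and for HOXD9, which with HOXB9 and HOXC9 belongs to paralogue group 9, the group that held the most HOX mRNA. Each sequence is codons 42 to 58 of the homeobox, read 5′ to 3′ from the GENCODE 29 transcripts, and the capitals mark codons 48 to 53, the core of the helix.
HOXB13: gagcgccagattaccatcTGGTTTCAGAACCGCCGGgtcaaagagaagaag
HOXB7: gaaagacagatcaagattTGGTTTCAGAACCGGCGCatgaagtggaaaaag
HOXC9: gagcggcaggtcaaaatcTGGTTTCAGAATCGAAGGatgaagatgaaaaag
HOXB9: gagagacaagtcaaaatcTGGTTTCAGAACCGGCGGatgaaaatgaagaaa
HOXD9: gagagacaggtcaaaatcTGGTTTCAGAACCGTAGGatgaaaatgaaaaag
HOXD10: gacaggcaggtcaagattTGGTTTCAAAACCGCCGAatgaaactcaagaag
Over the whole homeobox of 180 bases, found in all 39 genes, pairs of the same paralogue group were identical at a median of 81.7% of bases (69.4% to 90.6%, 42 pairs), and pairs of different groups at 60.6% (47.8% to 91.1%, 699 pairs). HOXC9 was 82.2% identical to HOXB9 and 83.3% to HOXD9, whereas HOXB13 and HOXB7, from the same cluster, were 52.2% identical. How far reads of the homeobox can be told apart between paralogues was not tested, and no source used here says how the authors treated reads that map to several places.

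The deposited values were read as FPKM, which divides reads by the length of the gene and the depth of the library, a unit inferred from the values, and they stood for 12506203 to 14908687 reads in annotated genes per library. At 1 kilobase, 3 reads came to 0.208 to 0.239 FPKM, a floor that covers counting error only. No 2 libraries held the same values, and their reads differed with a chi-square per degree of freedom of 2.83 within NT1_hp2, 6.22 within the negative control and 15.1 to 32.3 between the groups. The labels do not say whether replicates were separate cultures, and the spread behind each p-value may thus be technical. Of 16 markers of kidney progenitors and epithelium, 11 were at 1 FPKM or more in both negative control libraries, among them KRT8, KRT18, SIX2 and WT1, while CDH1, EPCAM, PAX2 and PAX8 were below 1 FPKM and CDH6 was at 0. The summed level of the 16 was 184 and 187 FPKM in NT1_hp2, against 240 and 218 FPKM in the negative control. Of the 11 tested, SIX2 (log2 fold change −0.48) and KRT18 (−0.41) fell by the test used below, where 8.92% of all features did. Markers of other cell types summed to 50.5 and 48.7 FPKM in NT1_hp2 against 59.3 and 56.9 FPKM in the negative control for neurons (nearly all NEFL), 14.3 and 13.7 against 14.6 and 14.7 FPKM for fibroblasts, 1.95 and 1.22 against 2.24 and 2.45 FPKM for blood, and 0.587 and 0.846 against 0.574 and 0.803 FPKM for endothelium. The blood markers PTPRC, CD3E and HBB were at 0 in all 4 libraries, and the part of marker levels in the HOX results was not tested.

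In the negative control, HEK293A cells held mRNA from all 4 HOX clusters, and most of it came from the posterior genes. Of the 39 genes, 26 were at 1 FPKM or more in both negative control libraries, the level taken here as expressed. They were 7 of the 11 HOXA genes (chromosome 7), 8 of the 10 HOXB genes (chromosome 17), 6 of the 9 HOXC genes (chromosome 12) and 5 of the 9 HOXD genes (chromosome 2). By position, 12 of the 16 posterior genes (paralogue groups 9 to 13) were expressed, 11 of the 15 central genes (groups 4 to 8) and 3 of the 8 anterior genes (groups 1 to 3). The posterior genes carried 62.8% ± 0.329 of the summed HOX FPKM in the negative control (SD, n = 2), the central genes 30.1% ± 0.226 and the anterior genes 7.19% ± 0.103. HOXD carried 33.3% ± 0.444 and HOXB 31.3% ± 0.857, ranges that did not overlap, then HOXC 20.1% ± 1.05 and HOXA 15.2% ± 0.256. Paralogue group 9 alone held 26.2% ± 0.665, group 13 held 16.2% ± 0.210 and group 10 held 14.05% ± 0.185, but group 12 held 0.103% ± 0.0383. The posterior run was therefore interrupted in HOXD, where HOXD12 lay near the floor between HOXD11 and HOXD13, and in HOXC, where HOXC11 and HOXC12 both lay under 1 FPKM between HOXC10 and HOXC13. In HOXA, HOXA10 was at 1.499 and 0.773 FPKM in control replicates 1 and 3. It thus did not count as expressed, between HOXA9 and HOXA11, which did. This gap depends on the exon length used. Over exon bases shared with no other gene, HOXA10 would be at 2.03 and 1.05 FPKM in the same libraries and would count as expressed.

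**Figure D1:**
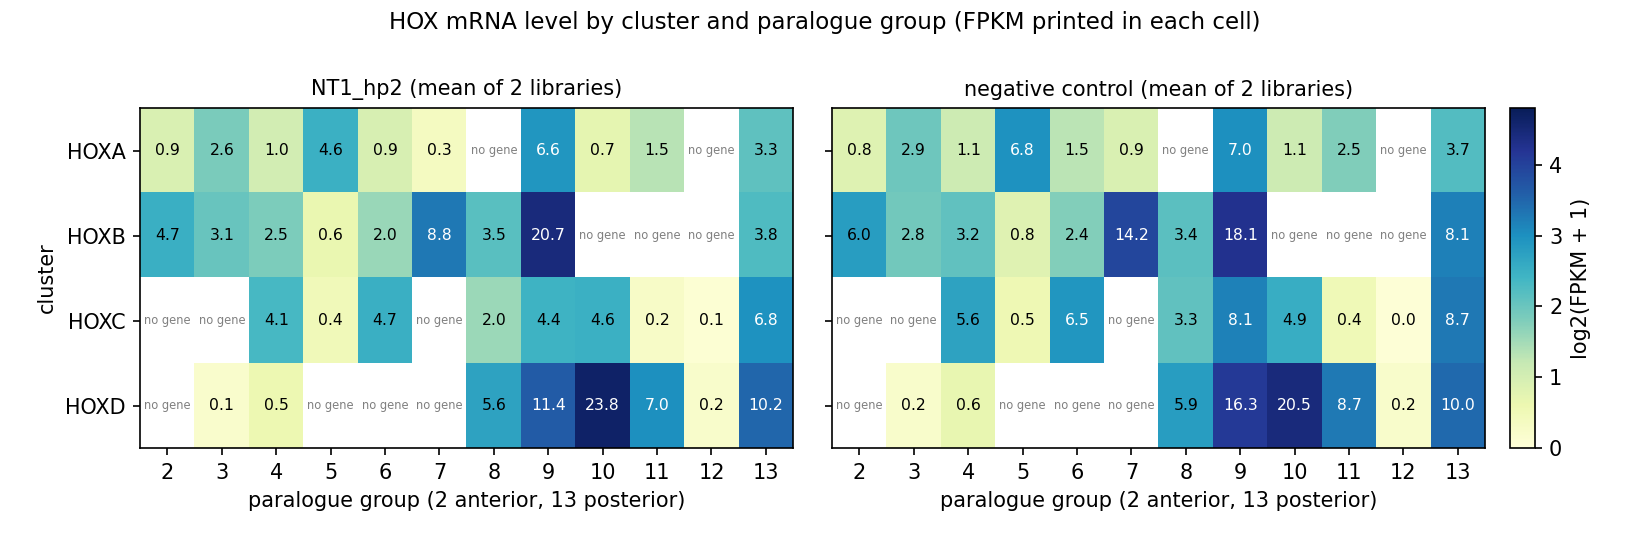
Mean FPKM of the HOX genes of paralogue groups 2 to 13 (columns) by cluster (rows), in NT1_hp2 (left) and the negative control (right), 2 libraries each; colour is log2(FPKM + 1) and white cells are positions with no gene. In both groups the darkest cells lie at HOXD10 and HOXB9, group 12 is pale in both of its clusters, and HOXB13 is at 3.77 FPKM in NT1_hp2 against 8.15 FPKM in the negative control.

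The highest HOX mRNA in the negative control was HOXD10, which patterns the limb and lumbar spinal cord in the mouse, at 20.5 ± 0.473 FPKM (rank 2017 of 19951 protein-coding genes). HOXB9, a thoracic patterning gene in the mouse, followed at 18.1 ± 0.868 FPKM, and the ranges of these 2 genes did not overlap. HOXD9 (16.3 ± 2.36 FPKM) overlapped HOXB9, and HOXB7 (14.2 ± 1.09 FPKM) overlapped HOXD9. HOXD13, the digit and genital gene at the posterior end of its cluster, came next at 10.0 ± 0.801 FPKM, below the range of HOXB7. The 4 genes after it, HOXC13, HOXD11, HOXB13 and HOXC9, lay at 8.10 to 8.74 FPKM. HOXB13 lay below HOXC13 and HOXD11 in both libraries, but HOXC9 overlapped all 3 and HOXC13 overlapped HOXD11, so the rest of their order was not resolved. In NT1_hp2 the first 2 places were the same, with HOXD10 at 23.8 ± 1.27 FPKM and HOXB9 at 20.7 ± 1.10 FPKM, followed by HOXD9 at 11.4 ± 1.61 FPKM and HOXD13 at 10.2 ± 2.27 FPKM, whose ranges overlapped.

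With NT1_hp2, 3 HOX genes fell and none rose. The 3 were HOXB13, the most posterior gene of its cluster, which marks prostate and distal colon, HOXB7, a central gene, and HOXC9, which sets thoracic motor neuron identity in the mouse. These are 3 of the 26 HOX genes tested, those that reached 1 FPKM in 2 or more libraries. Of all 16362 features tested, 8.92% fell, 5.0% rose and 13.9% did either (adjusted p under 0.05 by the Benjamini-Hochberg method over all features, in limma-trend on log2 of FPKM + 1), and of the protein-coding ones 10.8% fell. Of the calls, 35.9% were higher in NT1_hp2 as deposited, 53.6% with libraries scaled to their totals and 48.4% with upper-quartile scaling, and under each of these the count of HOX genes that fell was 3. No HOX gene passed when any 1 library was left out, but hardly any feature did in those fits, where 1 group holds 1 library. In this fit, the share of tested HOX genes that fell is thus near that among all features and among protein-coding genes. It was not near in 2 other fits. Of the 26, 10 fell in limma-voom on recovered reads, where 19.9% of all features fell. With protein-coding genes only, 13 fell, where 24.2% of genes fell. With length and GC trends removed, 1 fell, where 1.1% of all features fell. The other 23 tested HOX genes did not pass, and 13 were not tested.

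HOXB13 (ENSG00000159184, chromosome 17, 48724763 to 48729178, GRCh38) was at 3.86 and 3.68 FPKM in NT1_hp2 replicates 2 and 3, against 8.39 and 7.90 FPKM in negative control replicates 1 and 3. Both NT1_hp2 libraries lay under 0.5 of either control level, with 189 and 181 reads against 419 and 344. Its level was 0.463 of that in the negative control, and the ratio of summed reads was 0.462 (95% exact binomial interval 0.407 to 0.523, counting error only). The log2 fold change was −0.94 (SE 0.08, adjusted p = 0.0340 in limma-trend). Here and below, limma-trend fold changes are on log2(FPKM + 1), which gives a smaller change than the ratio of levels. No base of the HOXB13 exons is shared with another annotated gene. HOXB13 did not pass with 1 library left out, where hardly any feature passed.

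HOXB7 (ENSG00000260027, chromosome 17, 48607227 to 48633572) was at 9.27 and 8.34 FPKM in NT1_hp2, against 13.4 and 14.95 FPKM in the negative control. The groups did not overlap, and the level in NT1_hp2 was 0.621 of that in the negative control (log2 fold change −0.63, SE 0.09, limma-trend adjusted p = 0.0340). HOXC9 (ENSG00000180806, chromosome 12, 53994895 to 54003337) was at 3.80 and 5.08 FPKM in NT1_hp2, against 8.52 and 7.68 FPKM in the negative control. It too was lower in both NT1_hp2 libraries than in either control library, at 0.548 of the control level (log2 fold change −0.75, SE 0.14, limma-trend adjusted p = 0.0386). HOXB7 shares no exon bases with another gene, and 90.3% of those of HOXC9 are its own. Neither HOXB7 nor HOXC9 passed with 1 library left out, where hardly any feature passed.

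**Figure D2:**
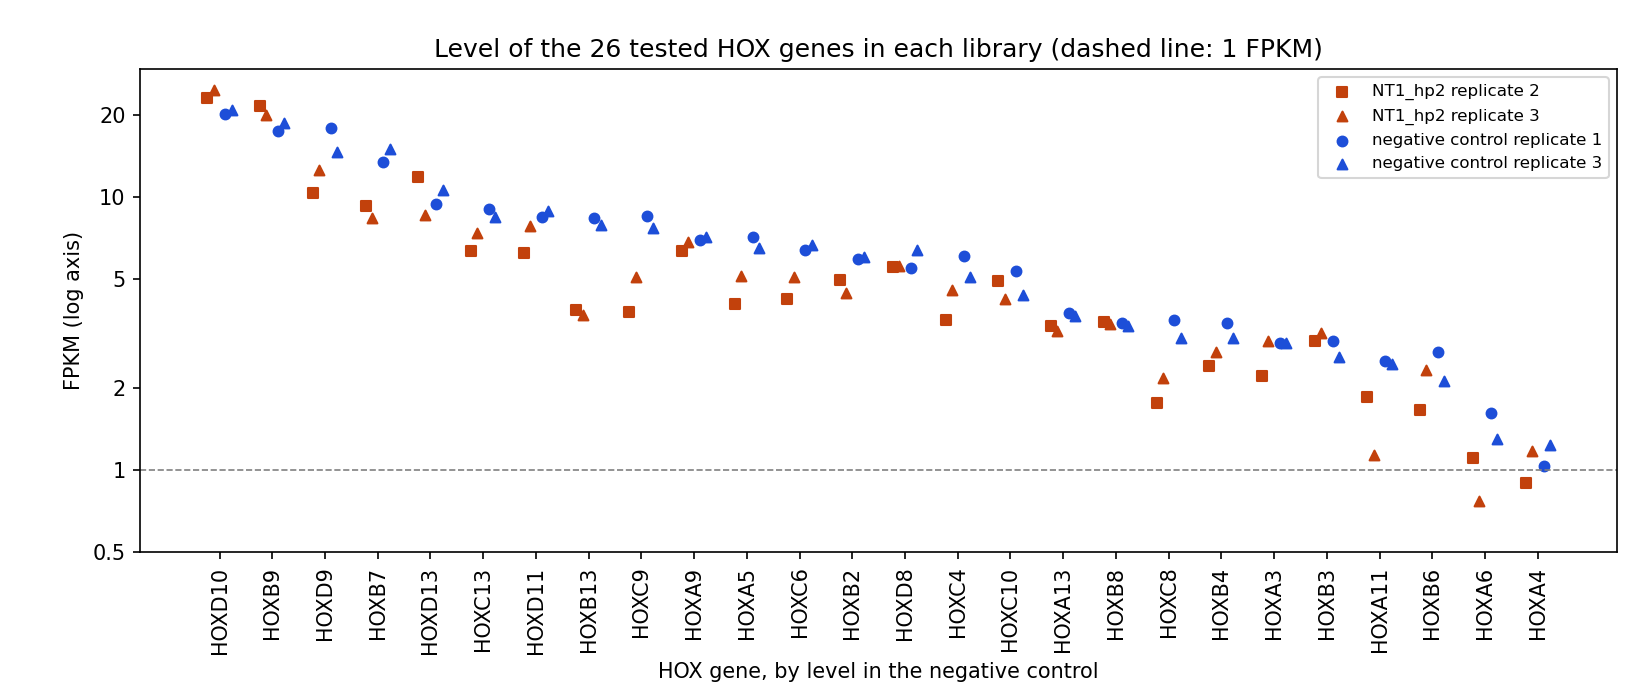
FPKM of the 26 tested HOX genes in each library (log axis), ordered by level in the negative control, with NT1_hp2 in orange and the negative control in blue. The orange points lie clearly below the blue ones at HOXB7, HOXB13 and HOXC9, while HOXD10 and HOXB9 have their orange points above.

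Among the anterior genes none passed. HOXB2, a hindbrain gene in the mouse, was at 4.97 and 4.43 FPKM in NT1_hp2, against 5.92 and 6.03 FPKM in the negative control. HOXB3 was at 2.95 and 3.18 FPKM in NT1_hp2, against 2.95 and 2.59 FPKM in the negative control. The HOXB2 groups did not overlap (log2 fold change −0.29, SE 0.08, limma-trend adjusted p = 0.0769), and those of HOXB3 nearly touched. HOXA3, which shapes the thymus and parathyroid in the mouse, was at 2.20 and 2.98 FPKM in NT1_hp2, against 2.903 and 2.92 FPKM in the negative control, and the groups overlapped.

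Among the 11 tested central genes, HOXB7 apart, the largest estimated decreases were in HOXC and HOXA genes and did not pass. HOXC8 was at 1.76 and 2.16 FPKM in NT1_hp2, against 3.53 and 3.03 FPKM in the negative control (log2 fold change −0.53, SE 0.13, limma-trend adjusted p = 0.0547). HOXA5, which is needed for lung development in the mouse, was at 4.07 and 5.12 FPKM in NT1_hp2, against 7.12 and 6.48 FPKM in the negative control (−0.49, SE 0.12, adjusted p = 0.0568 in the same limma fit). HOXC6 was at 4.22 and 5.09 FPKM in NT1_hp2, against 6.42 and 6.68 FPKM in the negative control (−0.42, SE 0.10, adjusted p = 0.0565). In each of these 3 genes both NT1_hp2 libraries were below both control libraries. HOXC4, which shares 17.8% of its exon bases with HOXC6, was at 3.53 and 4.58 FPKM in NT1_hp2, against 6.07 and 5.08 FPKM in the negative control. HOXB4, which can expand blood stem cells, was at 2.39 and 2.70 FPKM in NT1_hp2, against 3.46 and 3.03 FPKM in the negative control. The groups of HOXC4 and HOXB4 did not overlap either. HOXA6 was at 1.10 and 0.767 FPKM in NT1_hp2, against 1.62 and 1.30 FPKM in the negative control. HOXA4 was at 0.892 and 1.17 FPKM in NT1_hp2, against 1.03 and 1.23 FPKM in the negative control. These were the 2 members that reached 1 FPKM in both control libraries but in only 1 NT1_hp2 library, so 24 HOX genes counted as expressed in NT1_hp2, against 26 in the negative control. HOXB6 was at 1.66 and 2.33 FPKM in NT1_hp2, against 2.69 and 2.11 FPKM in the negative control. HOXB8 was at 3.49 and 3.43 FPKM in NT1_hp2, against 3.45 and 3.38 FPKM in the negative control, and HOXD8 at 5.55 and 5.57 FPKM in NT1_hp2, against 5.49 and 6.39 FPKM in the negative control. In these last 3 genes the groups overlapped.

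The estimates of the posterior genes lay on both sides of 0. HOXD10 was at 22.9 and 24.7 FPKM in NT1_hp2, against 20.2 and 20.8 FPKM in the negative control (log2 fold change 0.21, SE 0.07, limma-trend adjusted p = 0.1002). HOXB9 was at 21.5 and 19.9 FPKM in NT1_hp2, against 17.5 and 18.7 FPKM in the negative control (0.18, SE 0.07, adjusted p = 0.145). In both, the NT1_hp2 libraries lay above the control libraries without passing the test. The estimates at HOXB8 and HOXB9 (0.01 and 0.18) thus stood beside −0.63 at HOXB7, a difference that was not tested. Both genes lie inside the annotated span of HOXB7, on the same strand, without shared exon bases. HOXD9 was at 10.3 and 12.6 FPKM in NT1_hp2, against 17.9 and 14.6 FPKM in the negative control (−0.47, SE 0.14, adjusted p = 0.0783). HOXA9, a gene of blood progenitors and leukaemia, was at 6.33 and 6.81 FPKM in NT1_hp2, against 6.92 and 7.12 FPKM in the negative control. Within paralogue group 9 the estimates thus ranged from −0.75 in HOXC9 to 0.18 in HOXB9. HOXC10 was at 4.92 and 4.23 FPKM in NT1_hp2, against 5.33 and 4.37 FPKM in the negative control. Of the 3 genes of paralogue group 11, whose kidney role is named above, HOXD11 and HOXA11 were tested, and HOXC11 was not, at 0.195 and 0.216 FPKM in NT1_hp2, against 0.277 and 0.585 FPKM in the negative control. HOXD11 was at 6.21 and 7.81 FPKM in NT1_hp2, against 8.46 and 8.90 FPKM in the negative control (−0.28, SE 0.11, adjusted p = 0.150), and 21.4% of its exon bases are shared with HOXD10. HOXA11 was at 1.84 and 1.13 FPKM in NT1_hp2, against 2.50 and 2.45 FPKM in the negative control (−0.50, SE 0.18, adjusted p = 0.113). Neither HOXD11 nor HOXA11 passed, although in both the groups did not overlap. HOXC13, a hair and nail gene, was at 6.31 and 7.38 FPKM in NT1_hp2, against 9.03 and 8.44 FPKM in the negative control (−0.31, SE 0.09, adjusted p = 0.0837). HOXA13, a limb and genital tract gene, was at 3.36 and 3.23 FPKM in NT1_hp2, against 3.74 and 3.65 FPKM in the negative control. HOXD13 was at 11.8 and 8.62 FPKM in NT1_hp2, a range that took in both negative control values of 9.46 and 10.6 FPKM (0.01, SE 0.15, adjusted p = 0.965). HOXB13 was thus the only one of the 4 genes of paralogue group 13 to pass, and the difference between them was not tested.

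The 13 members that were not tested include HOXA2, HOXA7, HOXA10, HOXB1, HOXB5, HOXC5, HOXC11, HOXC12, HOXD1, HOXD3, HOXD4 and HOXD12. HOXB1, a hindbrain gene, was listed at 0 in all 4 libraries. HOXA7 had 9 and 11 reads in NT1_hp2 (0.264 and 0.321 FPKM), against 27 and 29 reads in the negative control (0.778 and 0.957 FPKM), a ratio of summed reads of 0.340 with a 95% exact binomial interval of 0.193 to 0.576. HOXA10 had 0.630 and 0.684 FPKM in NT1_hp2, against 1.499 and 0.773 FPKM in the negative control. HOXA7 and HOXA10 lay lower in both NT1_hp2 libraries but below the level at which genes were tested. At the posterior end, HOXC12 had 2 and 4 reads in NT1_hp2 and 2 and 1 in the negative control, and HOXD12 had 1 and 5 in NT1_hp2 and 4 and 2 in the negative control.

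**Figure D3:**
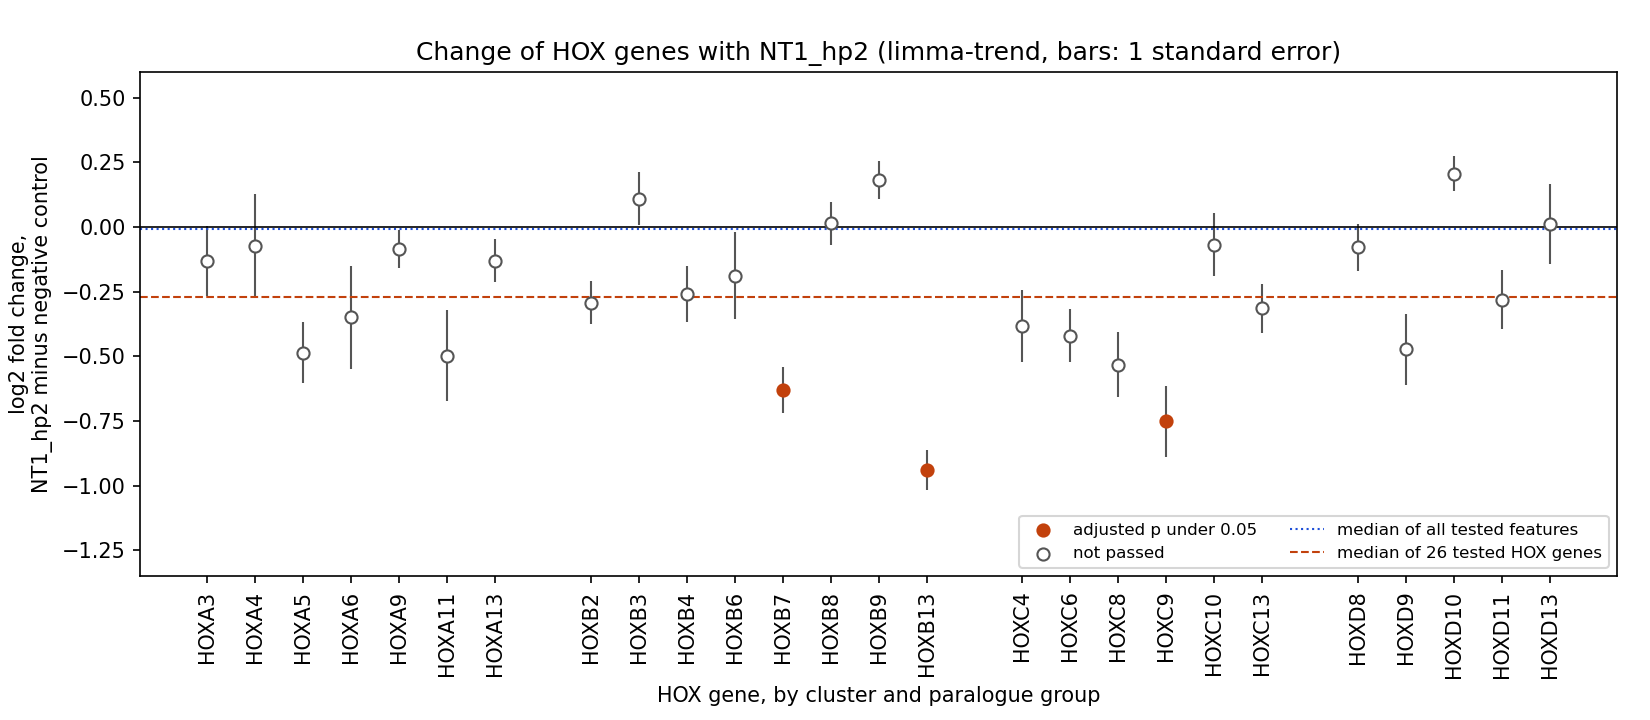
Log2 fold change of each tested HOX gene, NT1_hp2 minus negative control, on the log2(FPKM + 1) scale, by cluster and paralogue group, with 1 standard error from limma-trend; filled points passed the test. HOXB7, HOXB13 and HOXC9 are filled, and the median of the 26 genes (dashed, −0.27) lies below that of all tested features (dotted, −0.01).

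The estimates leaned downward across the clusters. Of the 26 tested HOX genes, 21 had an estimate below 0 and 5 above, and 16 had both NT1_hp2 libraries below both control libraries, 3 had both above and 7 overlapped. Among all tested features, both NT1_hp2 libraries lay below both control libraries in 34.8%, above in 32.0%, and one or the other in 66.8%. At an unadjusted p under 0.05, limma-trend gave 12 HOX genes of 26, 11 lower and 1 higher, where 37.0% of all features passed in either direction, 21.2% lower and 15.9% higher. The median log2 fold change was −0.27 over the 26 genes, −0.01 over all features and −0.03 over protein-coding genes. By cluster it was −0.40 in HOXC, −0.22 in HOXB, −0.13 in HOXA and −0.08 in HOXD. By position it was −0.35 in central, −0.20 in posterior and −0.13 in anterior genes. After length and GC trends were removed, as described below, the HOX median was −0.045, against −0.01 over all features. The cause of the lean was not tested. If HOX RNA is lower, fewer HOX-expressing cells and less HOX RNA per cell cannot be told apart in these bulk samples.

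Summed over all 39 genes, HOX mRNA came to 155 and 162 FPKM in NT1_hp2, against 190 and 187 FPKM in the negative control. HOXC summed to 25.1 and 29.3 FPKM in NT1_hp2, against 39.8 and 36.2 FPKM in the negative control, whereas HOXD summed to 57.6 and 60.6 FPKM in NT1_hp2, against 62.9 and 62.9 FPKM in the negative control. The central genes summed to 39.7 and 43.0 FPKM in NT1_hp2, against 56.9 and 56.4 FPKM in the negative control, and the posterior genes to 104 and 106 FPKM in NT1_hp2, against 120.0 and 117 FPKM in the negative control. Every one of these sums was lower in both NT1_hp2 libraries than in either control library. As a share of the HOX total, the posterior genes held 66.4% ± 0.866 in NT1_hp2 and 62.8% ± 0.329 in the negative control, and the central genes 26.1% ± 0.693 in NT1_hp2 and 30.1% ± 0.226 in the negative control. HOXD held 37.3% ± 0.240 in NT1_hp2 and 33.3% ± 0.444 in the negative control, and HOXC 17.1% ± 1.41 in NT1_hp2 and 20.1% ± 1.05 in the negative control (SD, n = 2 each). An exact two-sided permutation test of 2 against 2 libraries cannot give a p below 1 in 3, so the sums and shares carry no test.

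**Figure D4:**
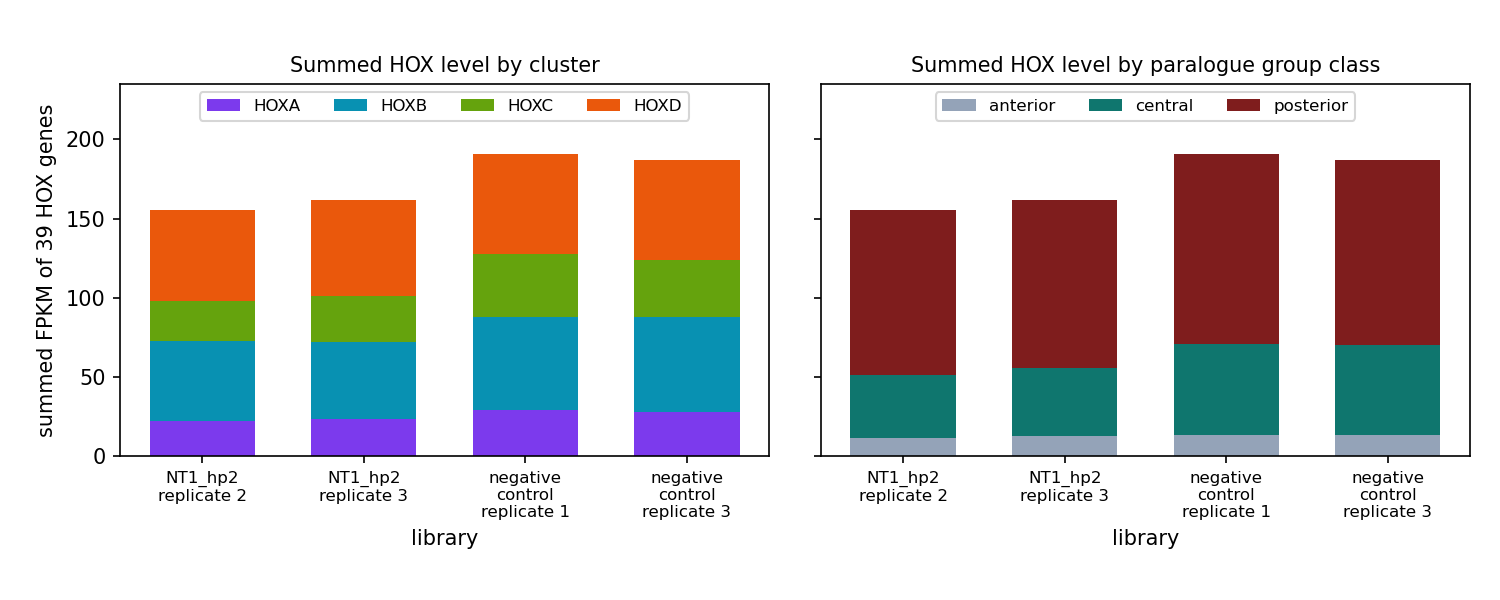
Summed FPKM of the 39 HOX genes in each library, stacked by cluster (left) and by position (right; anterior, paralogue groups 1 to 3; central, 4 to 8; posterior, 9 to 13). Both NT1_hp2 bars (155 and 162 FPKM) are shorter than both negative control bars (190 and 187 FPKM), and the posterior block is the largest in every library.

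The tested HOX genes were richer in G and C and shorter than protein-coding genes at large. They had a median GC content of 55.2%, against 48.4% in tested protein-coding genes, and a median summed exon length of 2379.5 bases, against 5105 bases. After smooth trends of log2(FPKM + 1) with length and GC content were removed from each library, the HOX median was −0.045, against −0.01 over all features, and 1 HOX gene passed. That gene was HOXB13, at −0.70 (adjusted p = 0.0405 in limma-trend), where 1.1% of all features fell, 0.703% rose and 1.8% did either. HOXB7 then had −0.54 (adjusted p = 0.0630) and HOXC9 −0.54 (adjusted p = 0.0753) in the limma fit. In limma-voom on the reads recovered from the FPKM, 10 HOX genes fell and none rose, where 19.9% of all features fell, 14.4% rose and 34.3% did either. They were HOXA5, HOXA11, HOXB7, HOXB13, HOXC4, HOXC6, HOXC8, HOXC9, HOXC13 and HOXD9.

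**Figure D5:**
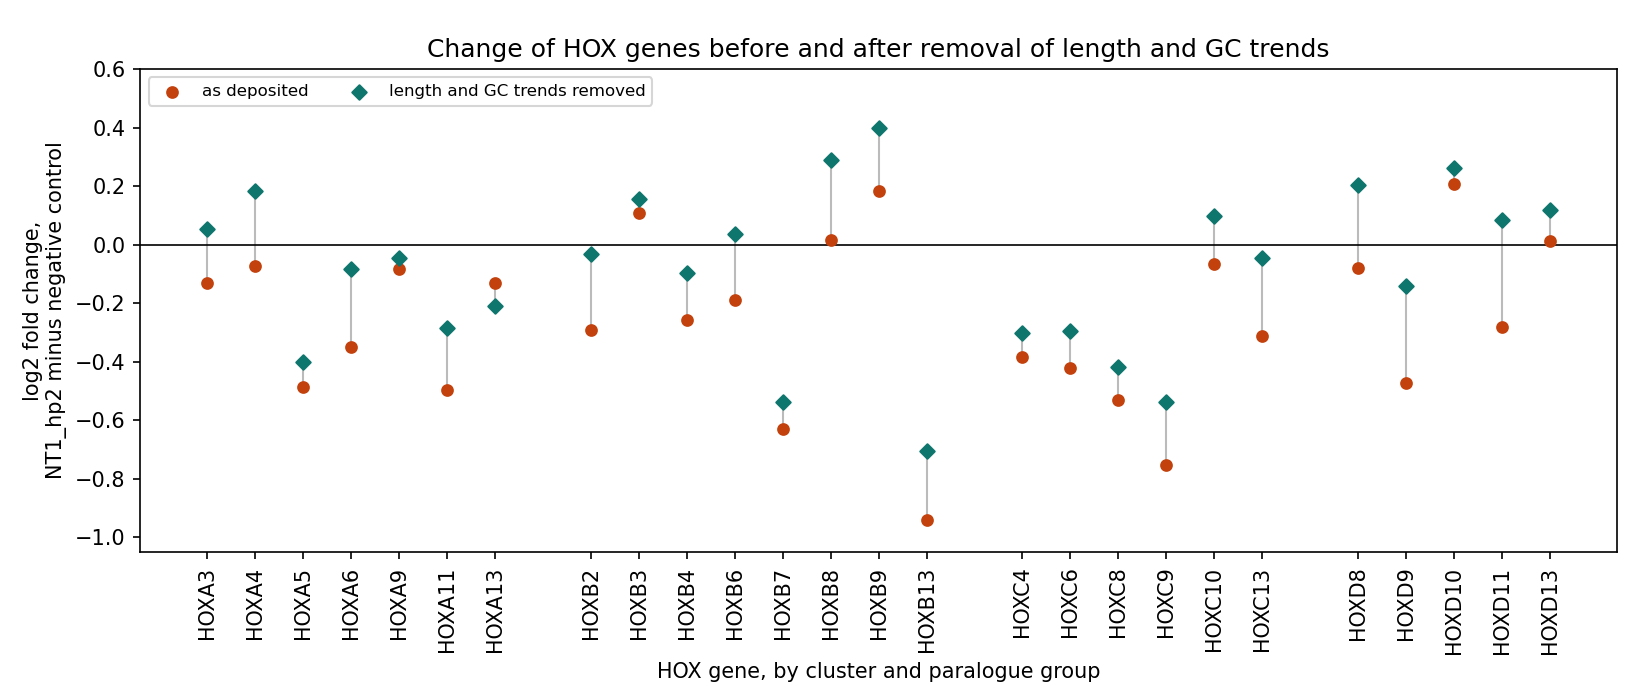
Log2 fold change of each tested HOX gene, NT1_hp2 minus negative control, from the deposited values (orange) and after removal of per-library trends with summed exon length and GC content (green). HOXB13, HOXB7 and HOXC9 stay lowest in both, at −0.70, −0.54 and −0.54 after removal, while HOXC10, HOXD8 and HOXD11 are among those that move to above 0.

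Annotated exons overlap within the clusters, and reads of opposite strands cannot be told apart, because the NEBNext Ultra RNA kit named in the labels makes unstranded libraries. Of the 39 members, 25 share exon bases with another gene, and in HOXD4, HOXD3, HOXA7, HOXC5 and HOXD1 more than 50% of the bases are shared. AC009336.2, which covers 80.5% of the exon bases of HOXD4 and 62.2% of those of HOXD3, was at 0.0201 and 0.0200 FPKM in NT1_hp2, against 0.217 and 0.0678 FPKM in the negative control. AC004080.3, AC004080.5, AC004080.6, AC012531.2, MIR196B, MIR10A and a HOXC5 transcript that is not protein-coding, which overlap exons of HOX genes on the same strand, were at 0 in all 4 libraries, and AC103702.1, which overlaps HOXB4, had at most 2 reads in any. If reads on shared bases were not counted, the levels of such genes are too low. Over its unshared bases alone HOXD4 would be at 2.23 and 2.96 FPKM in NT1_hp2, against 3.16 and 3.06 FPKM in the negative control, and HOXA7 at 0.705 and 0.857 FPKM in NT1_hp2, against 2.07 and 2.55 FPKM in the negative control. HOXA10 (2.03 and 1.05 FPKM) and HOXD1 (1.01 and 1.54 FPKM) would likewise reach 1 FPKM in both negative control libraries. More HOX genes would thus count as expressed than on the full exon length. On the unshared length the posterior genes would hold 64.9% of the HOX total in NT1_hp2 and 61.0% in the negative control.

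Noncoding genes of the clusters gave 2 of 9 tested lower and none higher, with a median log2 fold change of −0.27. Among all tested features 8.92% were lower and 5.0% higher. HOXC-AS1, which lies inside the HOXC9 gene span (chromosome 12, 53999022 to 54000010), was at 4.55 and 5.35 FPKM in NT1_hp2, against 8.92 and 9.41 FPKM in the negative control (−0.78, SE 0.09, limma-trend adjusted p = 0.0340). HOXD-AS2 (chromosome 2, 176121611 to 176137098) was at 5.75 and 6.21 FPKM in NT1_hp2, against 10.2 and 9.36 FPKM in the negative control (−0.62, SE 0.08, limma-trend adjusted p = 0.0340). In both the groups were well apart. After length and GC trends were removed, 1 noncoding gene of the clusters fell, and HOXD-AS2 did not pass (−0.29, limma-trend adjusted p = 0.0675). Of the 3 tested antisense RNAs whose exons overlap those of an expressed HOX gene, none passed. HOXB-AS1, which overlaps HOXB2 and HOXB3, was at 3.77 and 3.03 FPKM in NT1_hp2, against 3.25 and 2.40 FPKM in the negative control. HOXA10-AS, which overlaps HOXA9, was at 2.14 and 2.896 FPKM in NT1_hp2, against 3.23 and 3.22 FPKM in the negative control. HOXC-AS2, which overlaps HOXC6 and HOXC9, was at 0.959 and 0.858 FPKM in NT1_hp2, against 1.69 and 1.40 FPKM in the negative control (−0.41, SE 0.18, limma-trend adjusted p = 0.168). HOXC-AS2, beside a HOXC9 gene that fell, was lower in both NT1_hp2 libraries without passing. HOXA11-AS, HOTTIP, HOXA-AS2, HOXA-AS3, HOXB-AS3, HOXC-AS3 and HOXC13-AS also overlap expressed HOX genes and were too low to test. HOTAIR, a HOXC antisense RNA known for its link to Polycomb and singled out after its value was seen, was at 0.490 and 0.406 FPKM in NT1_hp2, against 0.427 and 0.704 FPKM in the negative control.

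Genes that flank the clusters changed in both directions, where 8.92% of all tested features fell and 5.0% rose. Beside HOXA, 1 of 5 tested rose (SNX10, a sorting nexin, 0.51) and none fell, and the most abundant, HIBADH and TAX1BP1, did not pass (0.03 and 0.06). Beside HOXB, 1 of 6 fell (NFE2L1, a transcription factor of proteasome genes, −0.31) and none rose, CBX1, the most abundant, being at −0.15 without passing. Beside HOXC, 1 of 5 fell (HNRNPA1, an RNA-binding protein, −0.68) and none rose, and ATP5MC2 did not pass (−0.26). Beside HOXD, 1 of 5 rose (LNPK, an endoplasmic reticulum protein, 0.42) and 1 fell (ATP5MC3, a subunit of ATP synthase, −0.32), and HNRNPA3, the most abundant, did not pass (0.09). PRAC1 and PRAC2, neighbours of HOXB13 singled out after their values were seen, were too low to test. PRAC1 had 2 and 0 reads in NT1_hp2, against 5 and 5 in the negative control, and PRAC2 had 0 and 0 in NT1_hp2, against 6 and 1 in the negative control.

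Among genes that encode partners of HOX proteins or regulators of HOX genes, most did not pass the test, while some fell and some rose. Of all tested features, 8.92% fell, 5.0% rose and 13.9% did either. PBX, MEIS and PKNOX proteins bind DNA together with HOX proteins, and 2 of their 8 tested genes fell and none rose. MEIS3 was at 11.02 and 11.3 FPKM in NT1_hp2, against 15.7 and 15.2 FPKM in the negative control (−0.43, SE 0.06, limma-trend adjusted p = 0.0340), and PBX2, the most abundant of them, at 19.1 and 19.6 FPKM in NT1_hp2, against 28.9 and 25.1 FPKM in the negative control (−0.46, SE 0.09, adjusted p = 0.0405). Among 27 Polycomb genes, 5 rose and 4 fell, with a median of 0.00. EZH2, the catalytic subunit of the complex that methylates histone H3, was at 33.6 and 30.3 FPKM in NT1_hp2, against 21.4 and 21.2 FPKM in the negative control (0.56, SE 0.07, limma-trend adjusted p = 0.0340). PHC3 also rose (0.68), and CBX8 (−0.68) and PCGF2 (−0.44), parts of the complex that binds the methylated histone, fell. The most abundant, RING1 and RBBP4, did not pass (−0.21 and 0.00). Among 16 genes of the MLL and COMPASS complexes and of demethylases that keep HOX genes on, MEN1 (−0.58) and SETD1B (−0.72) fell and none rose, and WDR5, the most abundant, did not pass (−0.10). Of 11 genes of CTCF, MAZ and cohesin, which set borders within HOX clusters, MAZ fell (−0.89) and none rose, and the most abundant, RAD21 and SMC3, did not pass (0.12 and 0.11). Of 11 tested genes of the CDX factors and of retinoic acid signalling, which switch HOX genes on in the embryo, RXRA fell (−0.45) and none rose, and the most abundant, CRABP2 and RXRB, did not pass (−0.17 and −0.31). CDX2, singled out after its value was seen, was at 2.10 and 1.86 FPKM in NT1_hp2, against 2.71 and 2.74 FPKM in the negative control, and did not pass (limma-trend adjusted p = 0.101). After length and GC trends were removed, 1 Polycomb gene rose, 1 gene of the CTCF, MAZ and cohesin list fell, and no other gene of these lists passed. The part of all these genes in the HOX values was not tested.

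A window of 250 bases upstream of the start was on hand from RefSeq (GRCh38.p14) for 20 of the 39 genes, in 26 distinct windows, 1 of them listed for both HOXC4 and HOXC5. The windows of HOXD13, the fifth most abundant HOX mRNA in the negative control, and of HOXB1, the member at 0 in every library, are shown to set a HOX promoter of a gene with mRNA beside one without detected mRNA, and neither overlaps an annotated exon. Motifs searched on both strands were the CCAAT box, the TATAAA form of the TATA box, the G-rich run GGGAGGG and the PBX-type run TGATTGAT, and capitals mark those found. The TATAAA matches of HOXD13 on the 2 strands overlap each other.
HOXD13, chr2:176092471-176092720, plus strand: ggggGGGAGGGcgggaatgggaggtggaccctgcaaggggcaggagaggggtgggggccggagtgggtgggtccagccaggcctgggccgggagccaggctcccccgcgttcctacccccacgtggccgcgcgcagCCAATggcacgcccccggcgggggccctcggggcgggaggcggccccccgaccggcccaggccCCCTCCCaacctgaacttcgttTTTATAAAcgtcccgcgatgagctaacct
HOXB1, chr17:48531012-48531261, minus strand: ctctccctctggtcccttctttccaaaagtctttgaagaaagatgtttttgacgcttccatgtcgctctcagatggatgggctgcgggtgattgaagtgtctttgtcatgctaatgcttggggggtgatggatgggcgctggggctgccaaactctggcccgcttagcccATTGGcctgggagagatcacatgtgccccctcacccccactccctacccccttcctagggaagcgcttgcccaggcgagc
The HOXD13 window holds 21 CpG with matches to the TATAAA run, to the CCAAT box and to the GGGAGGG run, and the HOXB1 window holds 7 CpG and 1 match to CCAAT on the other strand. Over the 26 HOX windows the median was 19.5 CpG, against 11 in all 34943 distinct promoter windows of the table. CCAAT was found in 17 of the 26 HOX windows (65.4%), against 32.0% of all windows. TATAAA was found in 5 HOX windows (19.2%), against 10.75% of all windows, GGGAGGG in 7 (26.9%), against 24.7%, and TGATTGAT in 2 (7.69%), against 0.418%. Several windows belong to the same gene, and they are not independent. A match is a run of letters and not a site of binding.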

How the data were processed

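RNA levels were read from 1 deposited table per library. The deposited values were taken as FPKM, a unit inferred from the values themselves, because the headers give a gene column and a library name alone. GRCh38.p12 is the build in the submitters' processing notes. Aligner, counter and normalization: not given in the sources used here. Multiplied by summed GENCODE 29 exon length, 100% of values above 0 were whole multiples of 1 step per library (within 0.01), which gave the reads behind each value, and the implied library size was 0.966 to 1.04 times the recovered total.

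Groups and replicate numbers came from the sample titles. Features that reached 1 FPKM in 2 or more libraries were tested on log2(FPKM + 1), a scale that understates changes of low genes, with limma 3.58.1 (intensity trend, robust shrinkage) in R 4.3.3, and p-values were adjusted over all of them by the Benjamini-Hochberg method (threshold 0.05). SEs are those of that fit, and SDs are over 2 libraries. The procedure was tested on simulated data. The simulation held no length or GC trends, so it does not bear on calls that depend on them. The alternatives were 3 other scalings, limma-voom on the reads behind the values, a fit of protein-coding genes only, one without the filter, one without robust shrinkage, a pseudocount of 0.1, removal of length and GC trends (mgcv 1.9.3), other levels for calling a gene expressed, unshared exon bases and omission of each library.

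HOX genes were named, apart from an item not reported here; of every other list, up to 4 genes that passed, by adjusted p, and the 2 most abundant could be named, with genes whose exons overlap an expressed HOX gene. Members and lists were chosen with earlier results of these data known. The HOXC5 row that is not protein-coding was left out.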

Additional observations from a re-analysis of the deposited data

How the results depend on the processing

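The count of HOX genes lower in NT1_hp2, 3 in the main test, was 10 in limma-voom on recovered reads, 13 with protein-coding genes only (where 24.2% of 12149 genes fell), 1 with length and GC trends removed and 0 without the filter, and 0 whichever library was left out, where 4 to 10 had an unadjusted p under 0.05. Under the 3 other scalings, no robust shrinkage and the smaller pseudocount it stayed within 1.5 times, and 0 HOX genes were higher under any alternative. Over all features, limma-trend called 2278, against 5617 in limma-voom, 4716 with protein-coding genes only, 295 with length and GC trends removed, 0 without the filter (6778 at an unadjusted p under 0.05) and 0 to 1 with 1 library left out (3315 to 5836 unadjusted). The higher share of calls was 35.9% as deposited, 53.6% scaled to library totals (2859 calls) and 48.4% with upper quartiles (2813 calls). In the other lists 22 genes passed, against 52, 41, 5 and 0 under the same alternatives in that order, and 0 whichever library was left out.

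The HOX median of −0.27 was −0.21 with upper-quartile factors, −0.21 with library totals, −0.33 in limma-voom, −0.045 with length and GC trends removed, and −0.30 to −0.20 with 1 library left out. Estimates that changed sign belonged to genes that had not passed. With trends removed these were HOXA3 (0.053), HOXA4 (0.18), HOXB6 (0.036), HOXC10 (0.098), HOXD8 (0.21) and HOXD11 (0.083). With 1 library left out, HOXA3 ranged from −0.29 to 0.024 and HOXA4 from −0.17 to 0.027 (each highest without NT1_hp2 replicate 2), HOXC10 from −0.19 to 0.051, HOXD8 from −0.17 to 0.014 and HOXD13 from −0.20 to 0.22.

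In the negative control, 15 HOX genes were at 5 FPKM or more, and 26 to 27 at 1 FPKM with 1 library left out. Over unshared exon bases HOXA7, HOXA10, HOXD1 and HOXD4 also reached 1 FPKM in both control libraries. Over unshared exon bases the shares became 17.2% for HOXA, 28.6% for HOXB, 34.04% for HOXD, 7.48% for anterior, 31.5% for central and 61.0% for posterior genes. With 1 control library left out they were 15.03% to 15.4% for HOXA, 30.7% to 31.9% for HOXB, 19.4% to 20.9% for HOXC, 33.0% to 33.7% for HOXD, 7.11% to 7.26% for anterior, 29.9% to 30.2% for central and 62.5% to 62.99% for posterior genes.

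The cause of these shifts was not tested. No paired analysis was possible because the groups share only replicate number 3. With 2 libraries a group, the calls rest on every library, and genes near 1 FPKM rest on few reads.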
